A study of Mus musculus with 15 samples.

Results

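The genes of glucose uptake, glycolysis and glycogen metabolism were examined in mouse interscapular brown adipose tissue. The list holds 43 genes, taken by symbol, and 39 of them had at least 1 probe set that carries their symbol alone. Gpi1, Pfkfb1, Eno1 and G6pdx had none and were not analysed here. Each gene was read from its probe set with the highest mean over the 15 arrays, and 38 of the 39 lay above the intensity filter and were among the 13174 genes tested out of 18194 in all. The lactate exporter gene Slc16a3 lay below the filter, at 4.83 to 5.07 in aFGFR1/KLB, 4.87 to 5.00 in FGF21 and 4.75 to 4.89 in control samples on the log2 intensity scale. All mice were wild-type adults of strain C57BL/6N kept on a high-fat diet, and tissue was taken on day 5. The 5 aFGFR1/KLB samples came from mice given 10 mg/kg of bFKB1, an antibody that activates the receptor FGFR1 together with its co-receptor KLB, in a lone intraperitoneal injection. The 5 FGF21 samples came from mice given the human form of the hormone FGF21, a natural ligand of that receptor complex, as 2 daily doses of 1 mg/kg (2 mg/kg per day). The labels do not name what the mice of the 5 control samples were given. Each sample was hybridised to its own array.

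Glucose enters cells through transporters of the Slc2a family and is trapped by hexokinases. Phosphofructokinase then commits it to glycolysis, which ends in pyruvate that is oxidised in mitochondria or reduced to lactate. Side branches store glucose as glycogen, send it through the pentose phosphate pathway for NADPH, or turn dihydroxyacetone phosphate into the glycerol backbone of triglyceride. Brown fat is known for strong glucose uptake when it is active. Several steps have a muscle isoform (Pfkm, Pgam2, Eno3, Pygm), so that skeletal muscle attached to the depot can add transcripts of the same pathway.

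The defining markers of brown fat were present. Ucp1, the uncoupling protein of brown fat, averaged 14.78 in aFGFR1/KLB, 14.69 in FGF21 and 14.59 in control samples (log2 intensity), and it was higher with aFGFR1/KLB than in controls (0.19 ± 0.05, adjusted p = 0.0494), with no overlap. Of the 14 brown adipocyte markers above the filter (15 listed), 5 were higher and 1 lower with aFGFR1/KLB, and 2 were higher and 2 lower with FGF21. Their mean log2 intensity was 11.14 to 11.49 in aFGFR1/KLB samples, 10.96 to 11.43 in FGF21 samples and 10.85 to 11.10 in controls. Of 16 endothelial markers, 1 was higher with aFGFR1/KLB and 2 with FGF21, with mean log2 intensities of 8.53 to 8.70 in aFGFR1/KLB samples, 8.48 to 8.88 in FGF21 samples and 8.35 to 8.57 in controls. The part of these markers' cells in the results was not tested. The 15 arrays had median intensities of 50.6 to 52.1 on the linear scale. Their upper quartiles ran from 189 to 216, highest in FGF21 36 (216) and control 34 (209). Their lower quartiles ran from 17.5 to 19.1, lowest in the same arrays (17.5 in FGF21 36 and 17.95 in control 34). In bulk tissue, fewer cells of a type and less RNA per cell cannot be told apart. The 21 skeletal muscle markers above the filter summed to 6571 to 175844 linear intensity units in aFGFR1/KLB samples, 3524 to 157715 in FGF21 samples and 15760 to 48558 in controls. The 21 macrophage markers above the filter summed to 16277 to 29690 units in aFGFR1/KLB samples, 12728 to 94165 in FGF21 samples and 9487 to 78237 in controls. For both lists the groups overlapped, and 0 of their tested markers passed in either comparison with control. The highest macrophage sums belonged to FGF21 36 (94165) and control 34 (78237). These arrays also had the highest mean log2 intensity of the 11 fibroblast and progenitor markers above the filter. It was 11.06 in control 34 and 10.47 in FGF21 36, and the next highest was 9.91, in FGF21 39. FGF21 36 also had the highest muscle sum of its group (157715). Control 34 was the lowest of the 5 controls for 28 of the 35 measured genes of the list outside the muscle class described below, and for 42.7% of all genes tested. FGF21 36 was the lowest of its group for 21 of the 35, and for 39.2% of all genes tested. Results are therefore also given without both arrays. That choice rests on measured values of the same genes, so calls gained without control 34 or FGF21 36 are a description and not separate support.

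A small set of the pathway's genes changed with either agonist, and most of the enzymes did not pass. Against control, 5 of the 38 tested genes passed with aFGFR1/KLB (limma, adjusted p under 0.05), 3 higher and 2 lower, which is 13.2% where 5.18% of all genes tested passed. Hk1, Pfkp and Tpi1 rose and Slc2a5 and Pygb fell. With FGF21 another count of 5 passed, 2 higher and 3 lower, again 13.2%, where 6.32% of all genes passed. Slc2a1 and Hk1 rose, and Slc2a5, Slc16a1 and Pygb fell. Hk1, Slc2a5 and Pygb passed in both comparisons, and 31 of the 38 passed in neither. The share of all genes called in each direction was 2.69% higher and 2.49% lower with aFGFR1/KLB, and 2.64% higher and 3.68% lower with FGF21. The median log2 fold change over the 38 genes was 0.02 with aFGFR1/KLB and −0.02 with FGF21, where the median over all genes tested was −0.02 in both. Both comparisons use the same 5 control samples. At an unadjusted p under 0.05 there were 11 of the 38 genes with aFGFR1/KLB, where 19.4% of all genes were, and 10 with FGF21, where 20.4% were. The 5 aFGFR1/KLB values lay above all controls for 4 genes (4.44% of all genes) and below all controls for 1 (4.17%), which together is 5 of 38 against 8.61% of all genes. The 5 FGF21 values lay above all controls for 2 genes (2.37% of all genes) and below them for 2 (2.88%), together 4 of 38 against 5.25%. With arrays centred on ribosomal protein genes, 83.1% of all calls with aFGFR1/KLB were higher, against 51.9% without it, and 66.0% with FGF21, against 41.8%. Slc2a1 was then the lone gene of the list to pass, with each agonist. In that setting 1.34% of all genes passed with aFGFR1/KLB and 1.54% with FGF21.

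**Figure D1:**
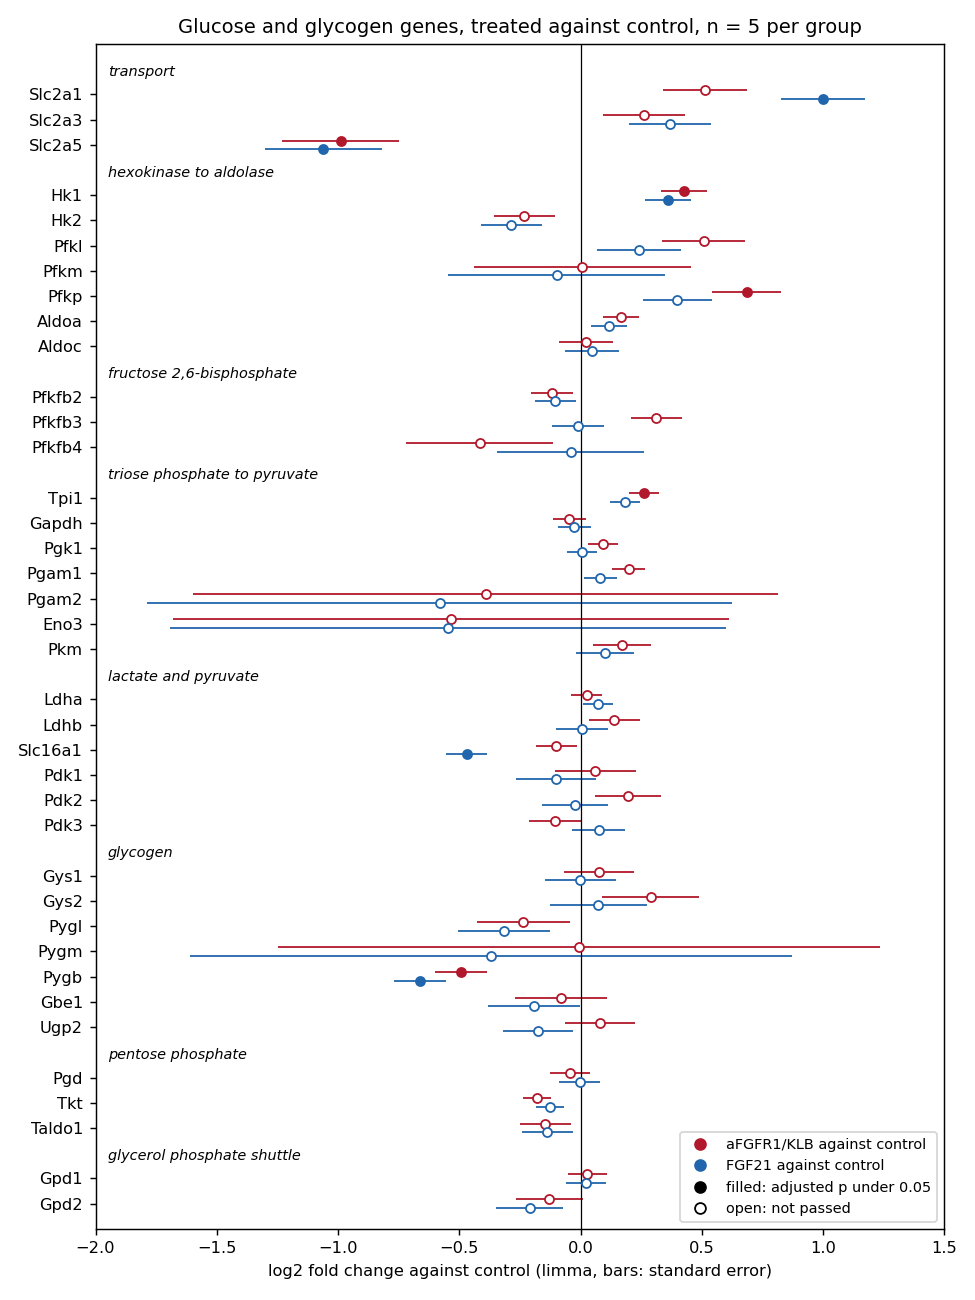
Log2 fold change against control (horizontal axis, with the standard error as bars) for the 38 tested genes, grouped by step, for aFGFR1/KLB (red) and FGF21 (blue), n = 5 per group; filled points passed an adjusted p of 0.05. Filled points are 5 per comparison, with Slc2a1 (1.00, FGF21) the farthest to the right and Slc2a5 (−1.06, FGF21) the farthest to the left among them, while Pgam2, Eno3 and Pygm have the widest bars.

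The counts depended on single arrays, and so did the share of all genes that passed. Of the 15 fits without 1 array, 5 per comparison leave out an array of the group not compared. These change only the shared estimate of the spread and not the fold change. With aFGFR1/KLB, the count of 5 became 2 without control 32, 3 without control 33 and 1 without aFGFR1/KLB 42, where 2.77%, 3.10% and 2.55% of all genes passed. Leaving out aFGFR1/KLB 41, 43 or 44 gave 3 each time, where 2.93%, 3.20% and 2.82% of all genes passed. With FGF21 it became 3 without control 33, where 3.89% of all genes passed, and 8 without control 34, where 15.9% did. Without control 34 and FGF21 36 together, 13 genes passed with aFGFR1/KLB, 7 higher and 6 lower, where 12.4% of all genes passed. The genes added were Slc2a1, Slc2a3, Pfkl and Pgam1, which were higher, and Hk2, Tkt, Taldo1 and Gpd2, which were lower. In the same fit 8 genes passed with FGF21, 4 higher and 4 lower, where 16.2% of all genes passed, and Slc2a3, Pfkp and Hk2 were the genes added.

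Among the glucose transporters, Slc2a1 (GLUT1, the transporter of basal glucose uptake) rose with FGF21. Its log2 intensity was 7.81, 7.77, 7.92, 7.61 and 7.97 in aFGFR1/KLB samples, 8.44, 8.03, 8.50, 8.26 and 8.28 in FGF21 samples, and 7.46, 7.04, 6.86, 8.02 and 7.14 in controls. All 5 FGF21 values lay above all 5 control values, and control 34 was the highest control. With FGF21 the log2 fold change was 1.00 ± 0.17 (SE, n = 5 per group, adjusted p = 0.00399), close to a doubling, and the call held in all 15 fits without 1 array. With aFGFR1/KLB it was 0.51 ± 0.17 (adjusted p = 0.107), and without control 34 it was 0.69 (adjusted p = 0.00405). The other probe sets of Slc2a1 rose with FGF21 by 1.01 and 0.37 (adjusted p = 0.00119 and 0.0172 over all probe sets).

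Slc2a5 (GLUT5, a fructose transporter) fell with both agonists. Its values were 7.40, 7.62, 7.44, 7.45 and 7.65 in aFGFR1/KLB samples, 7.12, 7.55, 8.04, 6.94 and 7.55 in FGF21 samples, and 9.08, 8.64, 8.88, 7.66 and 8.24 in controls. The aFGFR1/KLB values all lay below the controls, with aFGFR1/KLB 45 (7.65) and control 34 (7.66) nearly touching, while FGF21 38 lay above control 34. Slc2a5 differed on the log2 scale by −0.99 ± 0.24 with aFGFR1/KLB (adjusted p = 0.0291) and −1.06 ± 0.24 with FGF21 (adjusted p = 0.0174). Leaving out any of controls 31 to 33 or of samples 41 to 44 of aFGFR1/KLB ended that call (adjusted p 0.0613 to 0.0748), and leaving out control 33 ended the call with FGF21 (adjusted p = 0.0513). Slc2a3 (GLUT3, a high-affinity transporter) had a log2 fold change of 0.26 ± 0.17 with aFGFR1/KLB and 0.37 ± 0.17 with FGF21 (adjusted p = 0.438 and 0.229).

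At the entry and commitment steps, Hk1 (hexokinase 1, which phosphorylates glucose) rose with both agonists. Its values were 10.28, 10.57, 10.51, 10.60 and 10.19 in aFGFR1/KLB samples, 10.21, 10.52, 10.34, 10.37 and 10.38 in FGF21 samples, and 10.22, 9.94, 9.82, 10.07 and 9.98 in controls. In each treated group the lowest sample lay just under control 31, and the other samples lay above all controls. Hk1 differed by 0.43 ± 0.09 with aFGFR1/KLB (adjusted p = 0.0192) and 0.36 ± 0.09 with FGF21 (adjusted p = 0.0372). Its dim second probe set was at 0.45 with aFGFR1/KLB and 0.25 with FGF21 and did not pass (adjusted p = 0.0901 and 0.379 over all probe sets). Leaving out control 32 or 33, or any of aFGFR1/KLB 42, 43 and 44, ended the first call (adjusted p 0.0501 to 0.0588), and leaving out control 32, 33 or 35, or any of FGF21 37 to 40, ended the second (adjusted p 0.0606 to 0.0965). Hk2, the insulin-responsive hexokinase, did not pass, with a log2 fold change of −0.23 ± 0.12 with aFGFR1/KLB and −0.29 ± 0.12 with FGF21 (−0.39 and adjusted p = 0.0223 with FGF21 without control 34).

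Pfkp, the platelet-type phosphofructokinase, rose with aFGFR1/KLB. Its values were 11.41, 11.56, 11.50, 11.44 and 11.09 in aFGFR1/KLB samples, 10.62, 11.41, 11.25, 11.05 and 11.24 in FGF21 samples, and 10.79, 10.84, 10.93, 10.39 and 10.63 in controls. All aFGFR1/KLB values were above all controls, and among FGF21 samples only FGF21 36 lay within the control range. The log2 fold change was 0.68 ± 0.14 with aFGFR1/KLB (1.61-fold, adjusted p = 0.014), a call that held in all 15 fits without 1 array. With FGF21 it was 0.40 ± 0.14 (adjusted p = 0.119), and without FGF21 36 it was 0.52 (adjusted p = 0.0177). The other 2 probe sets of Pfkp, much dimmer, were higher with aFGFR1/KLB by 0.34 and 0.32 and did not pass (adjusted p = 0.148 and 0.138 over all probe sets).

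Pfkl, the liver-type phosphofructokinase, did not pass on the probe set used, although its aFGFR1/KLB and control values did not overlap. Its values were 12.98, 13.21, 12.99, 13.02 and 12.76 in aFGFR1/KLB samples, 12.28, 13.02, 12.86, 12.71 and 12.75 in FGF21 samples, and 12.70, 12.75, 12.51, 11.80 and 12.66 in controls. Control 34 and FGF21 36 were the lowest of their groups. Pfkl differed by 0.51 ± 0.17 with aFGFR1/KLB (adjusted p = 0.108) and 0.24 ± 0.17 with FGF21 (adjusted p = 0.482). Of its 2 other probe sets, the dimmest passed, higher by 0.53 with aFGFR1/KLB and by 0.57 with FGF21 (adjusted p = 0.0382 and 0.0235 over all probe sets). The brighter of these 2 did not pass, at 0.54 with aFGFR1/KLB and 0.28 with FGF21 (adjusted p = 0.103 and 0.433 over all probe sets). Without control 34 and FGF21 36, the aFGFR1/KLB difference on the probe set used was 0.34 (adjusted p = 0.0276). Aldoa and Aldoc, aldolases that split fructose 1,6-bisphosphate, had log2 fold changes of 0.17 and 0.02 with aFGFR1/KLB and 0.12 and 0.05 with FGF21, none of which passed.

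**Figure D2:**
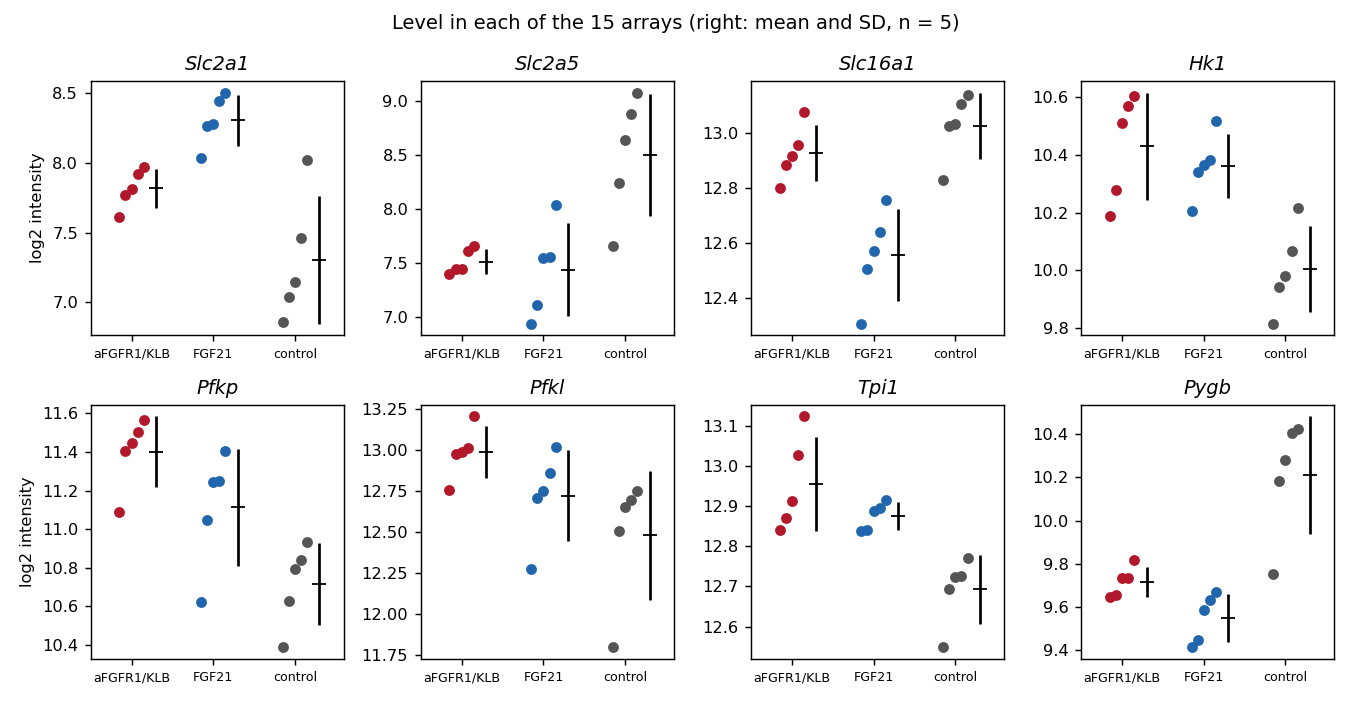
Log2 intensity (vertical axes, not starting at 0) of the 7 genes that passed in a comparison with control and of Pfkl in each of the 15 arrays, with the group mean and SD beside the points (n = 5). Slc2a1 separates FGF21 (8.03 to 8.50) from control samples (6.86 to 8.02), and Slc16a1 is lowest in FGF21 samples (12.31 to 12.76).

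The 300 bases around the annotated start of 4 genes that carry these results are shown, from 250 before it to 50 after it, 5′ to 3′ on the coding strand, because the genes differ in direction. Capitals mark ACGTG or GCGTG on either strand, the core of the sites bound by hypoxia-inducible factors, which also forms part of the E-box CACGTG. The sequences are RefSeq's, build GRCm38.p6.
Slc2a1, chr4:119108495-119108794, plus strand: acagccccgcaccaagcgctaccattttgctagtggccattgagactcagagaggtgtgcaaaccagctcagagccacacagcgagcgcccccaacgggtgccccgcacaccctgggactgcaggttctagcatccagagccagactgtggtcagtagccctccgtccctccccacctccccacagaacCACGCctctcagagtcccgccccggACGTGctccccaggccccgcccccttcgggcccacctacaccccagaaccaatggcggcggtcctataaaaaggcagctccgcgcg
Slc2a5, chr4:150119094-150119393, plus strand: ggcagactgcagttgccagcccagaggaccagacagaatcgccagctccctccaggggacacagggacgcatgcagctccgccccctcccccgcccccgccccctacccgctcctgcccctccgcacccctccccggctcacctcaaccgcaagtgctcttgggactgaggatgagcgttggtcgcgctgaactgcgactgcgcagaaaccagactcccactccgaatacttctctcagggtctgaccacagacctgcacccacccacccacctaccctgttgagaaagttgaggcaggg
Pfkp, chr13:6648722-6649021, minus strand: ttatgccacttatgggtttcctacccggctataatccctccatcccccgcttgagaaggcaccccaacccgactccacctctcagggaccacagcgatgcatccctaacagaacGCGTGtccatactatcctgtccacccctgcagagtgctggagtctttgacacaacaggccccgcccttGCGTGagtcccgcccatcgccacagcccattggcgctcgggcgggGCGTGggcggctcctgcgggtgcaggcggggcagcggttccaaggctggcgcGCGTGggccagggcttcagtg
Slc16a1, chr3:104638414-104638713, plus strand: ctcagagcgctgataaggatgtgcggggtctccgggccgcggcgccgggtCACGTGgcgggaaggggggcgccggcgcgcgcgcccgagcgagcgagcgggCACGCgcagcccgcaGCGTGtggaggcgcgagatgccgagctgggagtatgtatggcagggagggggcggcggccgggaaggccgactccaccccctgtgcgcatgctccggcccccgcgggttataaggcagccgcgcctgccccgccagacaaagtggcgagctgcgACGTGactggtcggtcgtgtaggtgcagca
The core occurred 2 times in the Slc2a1 window, 0 times in that of Slc2a5, 4 times in that of Pfkp and 5 times in that of Slc16a1, where the palindrome CACGTG counts once on each strand. All 4 windows were rich in G and C, at 65.3%, 65.3%, 64.7% and 73.7% in the same order. Of the 39 measured genes 36 matched the RefSeq table, with 53 windows, and 39 of these (73.6%) held the core, against 43.8% of all 32851 windows. The GC box GGGCGG, searched on both strands, was in 56.6% of the 53 windows and 35.7% of all windows. These counts describe letters in a window and not binding.

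The enzymes that set fructose 2,6-bisphosphate, the activator of phosphofructokinase, did not pass. Pfkfb3, its inducible kinase form, was at 11.19, 11.03, 10.99, 11.12 and 10.84 in aFGFR1/KLB samples, 10.41, 10.92, 10.71, 10.73 and 10.78 in FGF21 samples, and 10.65, 10.88, 10.89, 10.44 and 10.74 in controls. Of the aFGFR1/KLB samples, 4 lay above every control. Pfkfb3 differed by 0.31 ± 0.11 with aFGFR1/KLB (adjusted p = 0.106) and −0.01 ± 0.11 with FGF21 (adjusted p = 0.967). A dim second probe set differed in sign with aFGFR1/KLB (−0.14, adjusted p = 0.629 over all probe sets). Pfkfb2, another isoform, was at 6.12, 6.03, 6.08, 6.18 and 5.92 in aFGFR1/KLB samples, 5.78, 6.16, 6.16, 6.14 and 6.15 in FGF21 samples, and 6.14, 6.33, 6.30, 6.01 and 6.14 in controls. The groups overlapped, and it differed from control by −0.12 ± 0.09 with aFGFR1/KLB and −0.10 ± 0.09 with FGF21 (adjusted p = 0.509 and 0.559). Pfkfb4 differed by −0.42 ± 0.30 with aFGFR1/KLB and −0.04 ± 0.30 with FGF21.

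From triose phosphate to pyruvate, Tpi1 (triosephosphate isomerase) rose with aFGFR1/KLB. Its values were 13.03, 12.91, 12.87, 12.84 and 13.12 in aFGFR1/KLB samples, 12.89, 12.92, 12.90, 12.84 and 12.84 in FGF21 samples, and 12.72, 12.77, 12.73, 12.55 and 12.69 in controls. Every treated sample of both groups lay above every control. The change was small, 0.26 ± 0.06 with aFGFR1/KLB (1.20-fold, adjusted p = 0.0257) and 0.18 ± 0.06 with FGF21 (adjusted p = 0.101). The aFGFR1/KLB call ended without control 35 or aFGFR1/KLB 41, 42 or 45 (adjusted p 0.0522 to 0.0679), and the other 2 probe sets of Tpi1 were higher by 0.25 and 0.24 without passing (adjusted p = 0.0624 and 0.146 over all probe sets). The probe set used is of the x type, which can also bind related transcripts. The same holds for the probe sets used for Aldoa, Pgk1, Ldhb, Pgd and Tkt.

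Pgam1, the phosphoglycerate mutase of most tissues, was above all controls in all aFGFR1/KLB samples but did not pass (0.20 ± 0.07, adjusted p = 0.11). It passed without FGF21 36 (adjusted p = 0.0298), where 7.27% of all genes passed against 5.18% with all arrays. That array is in neither of the 2 groups, so only the shared estimate of the spread changed and not the fold change. FGF21 36 was itself low for Pgam1 (12.37, other FGF21 samples 12.63 to 12.72). Gapdh, Pgk1 and Pkm, which act between glyceraldehyde 3-phosphate and pyruvate, had log2 fold changes of −0.05, 0.09 and 0.17 with aFGFR1/KLB and −0.03, 0.01 and 0.10 with FGF21, with no call. The 95% interval for Gapdh, often used as a reference gene, ran from −0.19 to 0.10 with aFGFR1/KLB. Gapdh was read from the 3′ probe set of the array's own Gapdh controls. The 5′ and middle probe sets differed in sign with aFGFR1/KLB, at 0.15 and 0.03 (adjusted p = 0.574 and 0.914 over all probe sets).

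Among the genes that decide between lactate and oxidation, Slc16a1 (MCT1, a carrier of lactate, pyruvate and ketone bodies) fell with FGF21. Its values were 12.96, 12.91, 12.88, 13.07 and 12.80 in aFGFR1/KLB samples, 12.31, 12.57, 12.76, 12.50 and 12.64 in FGF21 samples, and 13.11, 13.14, 13.02, 12.83 and 13.03 in controls. All FGF21 values lay below all values of both other groups. Slc16a1 differed by −0.47 ± 0.08 with FGF21 (adjusted p = 0.00494), a call that held in all 15 fits without 1 array, and −0.10 ± 0.08 with aFGFR1/KLB (adjusted p = 0.581). A dim second probe set was at −0.31 with FGF21 (adjusted p = 0.179 over all probe sets). Ldha and Ldhb, the subunits of lactate dehydrogenase, had log2 fold changes of 0.02 and 0.14 with aFGFR1/KLB and 0.07 and 0.01 with FGF21. Pdk1, Pdk2 and Pdk3, kinases that shut off pyruvate dehydrogenase, ranged from −0.10 to 0.19 with aFGFR1/KLB and from −0.10 to 0.07 with FGF21. Pdk2 was at 9.83, 9.88, 9.69, 9.72 and 9.67 in aFGFR1/KLB samples, 9.32, 9.86, 9.42, 9.58 and 9.53 in FGF21 samples, and 9.66, 9.74, 9.81, 8.995 and 9.61 in controls, and control 34 was far below the rest. It differed by 0.19 ± 0.14 with aFGFR1/KLB (adjusted p = 0.489). None of Ldha, Ldhb and the 3 kinases passed.

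In glycogen metabolism, Pygb (the brain form of glycogen phosphorylase, which releases glucose 1-phosphate) fell with both agonists. Its values were 9.73, 9.65, 9.65, 9.73 and 9.82 in aFGFR1/KLB samples, 9.67, 9.45, 9.63, 9.41 and 9.58 in FGF21 samples, and 10.28, 10.41, 10.42, 9.75 and 10.18 in controls. The FGF21 values all lay below the controls, and aFGFR1/KLB 45 was the lone aFGFR1/KLB sample above control 34. The log2 fold change was −0.49 ± 0.11 with aFGFR1/KLB (0.711-fold, adjusted p = 0.0177) and −0.66 ± 0.11 with FGF21 (0.632-fold, adjusted p = 0.0026). The FGF21 call held in all 15 fits without 1 array, and the aFGFR1/KLB call ended without control 32 (adjusted p = 0.0518) or aFGFR1/KLB 42 (adjusted p = 0.0508). The liver form Pygl was at −0.24 ± 0.19 with aFGFR1/KLB and −0.32 ± 0.19 with FGF21, and did not pass. The glycogen synthases Gys1 and Gys2 had log2 fold changes of 0.08 and 0.29 with aFGFR1/KLB and 0.00 and 0.07 with FGF21. Gbe1, the branching enzyme, and Ugp2, which makes UDP-glucose, were at −0.08 and 0.08 with aFGFR1/KLB and −0.19 and −0.18 with FGF21. None of these 4 passed.

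In the pentose phosphate pathway Tkt (transketolase) came nearest to passing. Its values were 14.63, 14.61, 14.59, 14.56 and 14.64 in aFGFR1/KLB samples, 14.57, 14.70, 14.73, 14.63 and 14.67 in FGF21 samples, and 14.85, 14.89, 14.82, 14.63 and 14.74 in controls. Without control 34 every aFGFR1/KLB value and every FGF21 value was below every control. This is a description, since control 34 was left out because of its values, and the share of all genes so separated was not counted. Tkt differed by −0.18 ± 0.06 with aFGFR1/KLB (adjusted p = 0.0805; −0.22 and 0.0164 without control 34) and −0.13 ± 0.06 with FGF21 (adjusted p = 0.216; −0.17 and 0.0397 without control 34). A dimmer probe set of Tkt was at −0.43 with aFGFR1/KLB (adjusted p = 0.269 over all probe sets) and at −0.85 with FGF21 (adjusted p = 0.0234), so that the size depended on the probe set. Pgd and Taldo1, other enzymes of the pathway, were at −0.04 and −0.15 with aFGFR1/KLB and 0.00 and −0.14 with FGF21. Gpd1 and Gpd2, the cytosolic and mitochondrial enzymes of the glycerol phosphate shuttle, were at 0.03 and −0.13 with aFGFR1/KLB and 0.02 and −0.21 with FGF21. Gpd2 was at 13.36, 13.43, 13.30, 13.37 and 13.31 in aFGFR1/KLB samples, 12.83, 13.46, 13.53, 13.17 and 13.38 in FGF21 samples, and 13.56, 13.67, 13.70, 13.002 and 13.49 in controls. Its groups overlapped, with control 34 and FGF21 36 the lowest of all (adjusted p = 0.68 and 0.44). Gpd1, Gpd2, Pgd and Taldo1 did not pass.

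Set against each other directly, aFGFR1/KLB and FGF21 samples differed in 0 of the 38 genes by limma's adjusted p, where 0.372% of all genes passed, and in 3 at an unadjusted p under 0.05, where 13.5% of all genes did. These 3 were Slc16a1, Pfkfb3 and Slc2a1. The ranges were apart for 2 of the 38, against 4.69% of all genes, with aFGFR1/KLB above FGF21 for 1 (2.39% of all genes) and below for 1 (2.3%). Slc16a1 was higher with aFGFR1/KLB by 0.37 ± 0.08, a 95% interval of 0.19 to 0.55 (adjusted p = 0.074), with all 5 aFGFR1/KLB values above all 5 FGF21 values. Slc2a1 had a log2 difference of −0.49 ± 0.17, lower with aFGFR1/KLB, an interval of −0.86 to −0.11 (adjusted p = 0.257), again with no overlap. Pfkfb3 was higher by 0.32 ± 0.11, an interval of 0.10 to 0.55 (adjusted p = 0.212). Without control 34, which changes the shared estimate of the spread, Slc16a1 and Slc2a1 passed (adjusted p = 0.0297 and 0.0462). In that fit 1.91% of all genes passed, against 0.372% with all arrays. For Hk1, Pygb and Slc2a5, which passed against control with both agonists, the difference between the agonists was 0.07 (−0.13 to 0.27), 0.17 (−0.06 to 0.40) and 0.07 (−0.44 to 0.59).

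The muscle isoforms were separated by their correlation with Acta1, the actin of skeletal muscle, over the 15 arrays, a step that uses measured values and carries no test. Acta1 spanned 4.69 to 14.51 in aFGFR1/KLB samples, 5.09 to 14.28 in FGF21 samples and 11.06 to 12.78 in controls. Genes with both Pearson r and Spearman rho of at least 0.7 were Eno3 (muscle enolase), Pgam2 (muscle phosphoglycerate mutase), Pygm (muscle glycogen phosphorylase) and Pfkm (muscle phosphofructokinase). Eno3 had an r of 0.94 and a rho of 0.996, and Pgam2 0.926 and 0.979. Pygm stood at 0.881 and 0.968, and Pfkm, just inside the limit, at 0.774 and 0.875. Pfkfb4 came next, below the limit in both measures, at 0.55 and 0.664. Without FGF21 38 and aFGFR1/KLB 44, the samples farthest from the median of Acta1, r was 0.947 for Eno3, 0.94 for Pgam2, 0.899 for Pygm and 0.787 for Pfkm. Arrays share normalisation across genes, and 149 of the 13174 genes tested (1.13%) met the same limit. Aldoa, an aldolase abundant in muscle, had an r of −0.11 and a rho of 0.10.

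**Figure D3:**
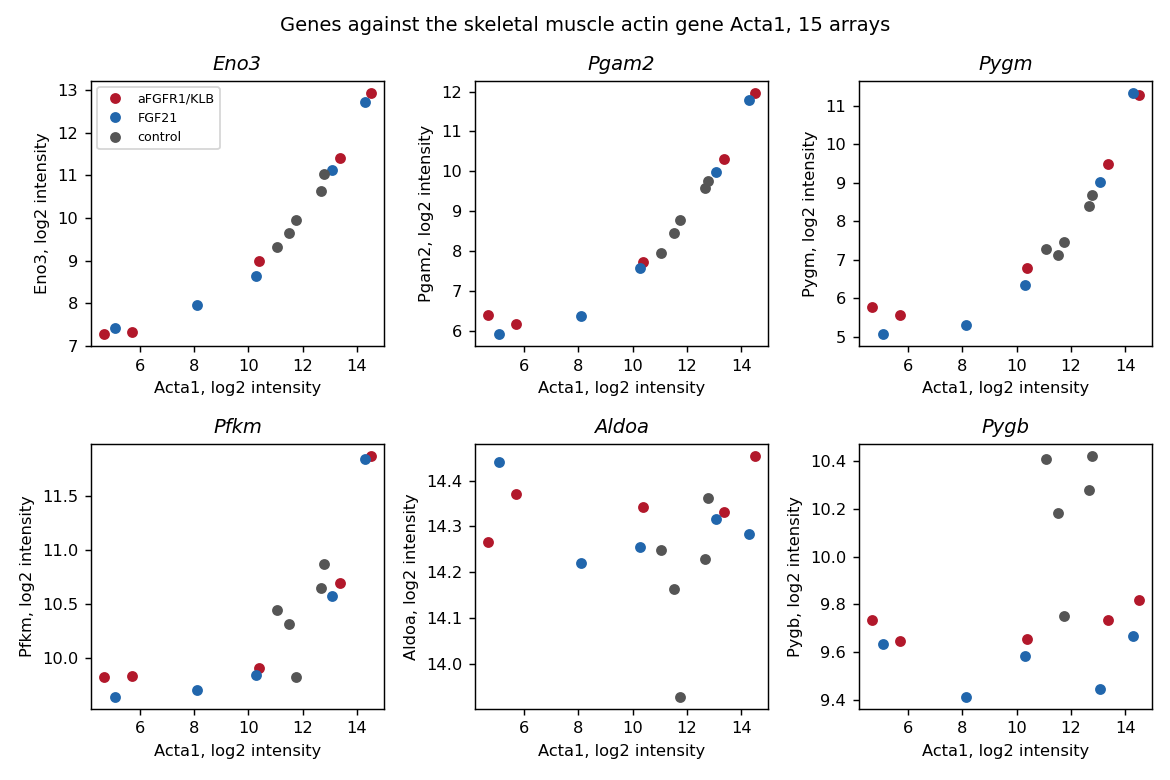
Log2 intensity of 4 muscle-class genes and of Aldoa and Pygb (vertical axes) against Acta1 (horizontal axes) in the 15 arrays, coloured by group. Eno3, Pgam2, Pygm and Pfkm climb with Acta1 in samples of every group, while Aldoa does not. Pygb is highest in 4 of the controls, and controls lie only at Acta1 values of 11.06 to 12.78.

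**Figure D4:**
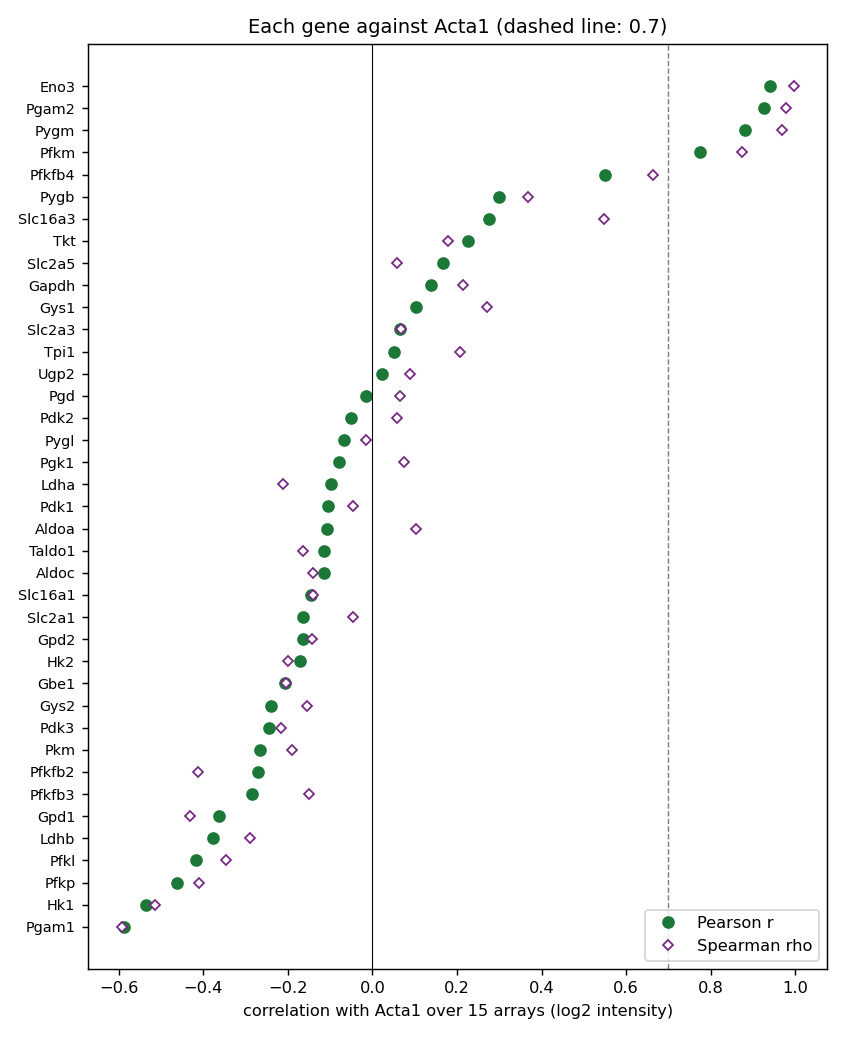
Pearson r (green circles) and Spearman rho (open diamonds) of each of the 39 measured genes with Acta1 over 15 arrays (horizontal axis), sorted by r, with a dashed line at 0.7. Of the 39 genes, 4 lie to the right of the line in both measures, and Pgam1 lies farthest to the left (−0.59 for both).

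Eno3 showed the spread of this class. Its values were 11.40, 7.33, 8.99, 7.28 and 12.93 in aFGFR1/KLB samples, 12.72, 11.13, 7.42, 7.96 and 8.64 in FGF21 samples, and 10.63, 9.33, 11.03, 9.95 and 9.66 in controls. Samples of both treated groups lay above and below all controls. Pygm was at 9.48, 5.55, 6.79, 5.78 and 11.28 in aFGFR1/KLB samples, 11.33, 9.01, 5.07, 5.31 and 6.35 in FGF21 samples, and 8.40, 7.27, 8.67, 7.46 and 7.12 in controls. For both genes aFGFR1/KLB 41 and 45 and FGF21 36 and 37 lay above all controls, and the other treated samples lay below all controls. Pgam2 was at 10.31, 6.18, 7.73, 6.38 and 11.96 in aFGFR1/KLB samples, 11.78, 9.97, 5.92, 6.37 and 7.56 in FGF21 samples, and 9.57, 7.95, 9.76, 8.79 and 8.44 in controls. The range over the 15 arrays was 2.23 to 6.26 on the log2 scale for the 4 muscle-class genes and 0.32 to 2.14 for the other 35. The within-group SD was 0.78 to 2.16 for the 4 genes and 0.07 to 0.52 for the other 35.

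None of the 4 passed in any comparison, and their intervals were wide. Pfkm was at 10.70, 9.83, 9.91, 9.83 and 11.87 in aFGFR1/KLB samples, 11.85, 10.57, 9.64, 9.70 and 9.84 in FGF21 samples, and 10.65, 10.44, 10.87, 9.83 and 10.31 in controls. For Eno3 the log2 fold change was −0.53 (95% interval −2.98 to 1.91) with aFGFR1/KLB and −0.55 (−2.99 to 1.90) with FGF21. For Pfkm, the narrowest of the 4, it was 0.01 (−0.95 to 0.96) with aFGFR1/KLB and −0.10 (−1.05 to 0.86) with FGF21. With Acta1 as a covariate, the count of genes passing was 5 with aFGFR1/KLB, where 3.80% of all genes passed, and 4 with FGF21, where 5.71% did. The FGF21 call of Hk1 ended in that fit (adjusted p = 0.0533).

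The 300 bases around the starts of Eno3 and Pgam2 are shown because both genes followed Acta1 closely. Capitals mark the E-box CANNTG on either strand, the general form of the site bound by muscle regulatory factors, which includes CACGTG.
Eno3, chr11:70656926-70657225, plus strand: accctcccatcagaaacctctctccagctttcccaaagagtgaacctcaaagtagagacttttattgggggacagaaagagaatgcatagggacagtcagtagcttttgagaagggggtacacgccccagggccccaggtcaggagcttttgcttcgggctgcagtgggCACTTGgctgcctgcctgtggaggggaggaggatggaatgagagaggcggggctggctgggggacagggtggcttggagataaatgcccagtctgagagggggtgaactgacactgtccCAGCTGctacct
Pgam2, chr11:5803747-5804046, minus strand: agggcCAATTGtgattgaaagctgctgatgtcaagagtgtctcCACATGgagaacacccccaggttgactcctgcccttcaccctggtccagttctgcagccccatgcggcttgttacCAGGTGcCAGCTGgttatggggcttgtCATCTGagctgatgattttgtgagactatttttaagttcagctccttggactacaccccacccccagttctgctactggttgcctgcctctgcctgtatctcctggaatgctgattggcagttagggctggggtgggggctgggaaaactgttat
The E-box occurred 2 times in the Eno3 window and 5 times in that of Pgam2. It was in 6 of the 7 windows of the 4 muscle-class genes, but also in 72.3% of all windows.

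Other genes of carbohydrate metabolism, a list of 83 of which 63 were tested, were also compared. With aFGFR1/KLB 3 rose and 2 fell (7.94%, where 5.18% of all genes passed), and with FGF21 2 rose and 5 fell (11.1%, where 6.32% of all genes passed). Bsg (basigin), the chaperone that brings Slc16a1 to the cell surface, rose with both. Its values were 12.81, 12.97, 12.94, 13.09 and 12.46 in aFGFR1/KLB samples, 12.01, 12.91, 12.48, 12.54 and 12.52 in FGF21 samples, and 11.74, 11.61, 11.76, 11.67 and 11.93 in controls. Every treated value was above every control. The log2 fold change was 1.11 ± 0.14 with aFGFR1/KLB (adjusted p = 0.001) and 0.75 ± 0.14 with FGF21 (adjusted p = 0.00714). Slc16a7 (MCT2, a high-affinity pyruvate and lactate carrier) fell with both, with log2 fold changes of −0.73 ± 0.14 with aFGFR1/KLB (adjusted p = 0.00918) and −0.81 ± 0.14 with FGF21 (adjusted p = 0.00377), with no overlap with controls in either comparison.

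Around glycogen, Ppp1r3c, which targets protein phosphatase 1 to glycogen, rose with aFGFR1/KLB. It was at 11.40, 11.52, 11.31, 11.62 and 11.56 in aFGFR1/KLB samples, 10.98, 11.16, 11.03, 11.14 and 11.02 in FGF21 samples, and 11.06, 10.85, 10.76, 10.56 and 10.93 in controls. The aFGFR1/KLB values lay above all others. The log2 fold change was 0.65 ± 0.09 with aFGFR1/KLB (adjusted p = 0.00117) and 0.23 ± 0.09 with FGF21 (adjusted p = 0.142), and the difference between the agonists was 0.42 ± 0.09 (adjusted p = 0.054). Ppp1r3d, another glycogen-targeting subunit, fell with FGF21 (−0.65 ± 0.14, adjusted p = 0.0124) and was at −0.05 with aFGFR1/KLB (adjusted p = 0.895), with a difference between the agonists of 0.60 ± 0.14 (adjusted p = 0.074). Phka2, a regulatory subunit of phosphorylase kinase, fell with aFGFR1/KLB (−0.62 ± 0.13, adjusted p = 0.0129) and with FGF21 (−0.45 ± 0.13, adjusted p = 0.0499). The FGF21 call of Phka2 ended in 13 of 15 fits without 1 array and held without FGF21 36 and without control 34.

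Rpia, which makes ribose 5-phosphate, rose with FGF21 (0.51 ± 0.11, adjusted p = 0.0124) and just missed with aFGFR1/KLB (0.39 ± 0.11, adjusted p = 0.0511). Tigar, a fructose bisphosphatase, rose with aFGFR1/KLB (0.28, adjusted p = 0.0338), and Gsk3b, a kinase that inhibits glycogen synthase, and Khk, the fructokinase, fell with FGF21 (−0.23 and −0.29, adjusted p = 0.0303 and 0.0265). These 3 calls were fragile and ended in 5, 6 and 7 of 15 fits without 1 array. Slc2a4 (GLUT4, the insulin-responsive transporter) was at −0.11 with aFGFR1/KLB and −0.26 with FGF21 (adjusted p = 0.717 and 0.307). Pdk4, a pyruvate dehydrogenase kinase, was at 0.15 with aFGFR1/KLB and 0.05 with FGF21 (adjusted p = 0.519 and 0.869). The glucose-responsive genes Txnip and Mlxipl were at 0.06 and 0.01 with aFGFR1/KLB and 0.03 and 0.18 with FGF21, with no call.

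**Figure D5:**
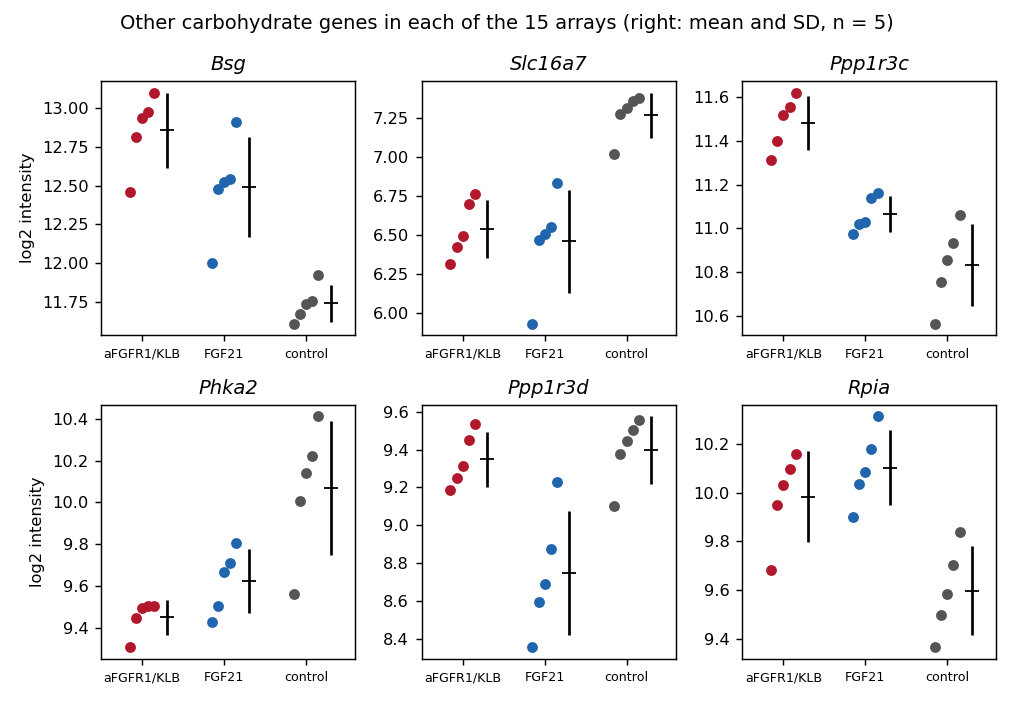
Log2 intensity (vertical axes, not starting at 0) of 6 further carbohydrate genes in each of the 15 arrays, with the group mean and SD beside the points (n = 5). Bsg lies above every control in both treated groups, Slc16a7 below, and Ppp1r3c stands highest in aFGFR1/KLB samples (11.31 to 11.62).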

How the data were processed

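RNA of 15 samples was hybridised to 1 array each. The deposited table holds linear intensities of 45101 probe sets, between 5.58 and 34652. The authors made these intensities with RMA (per the submitters' processing notes), which corrects background, normalises by quantiles and summarises probes; its version and chip definition are not given in the sources used here. Groups came from the titles. Nothing says which samples are separate animals, so p-values measure only the spread between these samples, and no label gives a batch.

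Intensities were put on the log2 scale without renormalisation. By GEO's platform annotation 34958 probe sets carry 1 symbol, 932 carry several and 9211 are unnamed here (34754 matched RefSeq by Entrez ID, and 0 symbols differed). Each gene was read from its brightest probe set and tested if that lay over the 40th percentile of all (5.06). limma 3.58.1 in R 4.3.3 (lmFit, eBayes, two-sided, 12 residual degrees of freedom) fitted all 15 samples in their 3 groups together, with Benjamini-Hochberg adjustment over 13174 genes per comparison and a threshold of 0.05; all adjusted p are its. Values after ± are standard errors. With arrays, the number per group (5) limits precision. Alternatives changed the probe set, filter, scaling, pseudocount, arrays, covariates and variance model.

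Genes, lists and alternatives were chosen with earlier results of these data known. Values per sample are given for genes that passed, for the smallest p of each step against control and for the muscle class, and, chosen after their values were seen, for Pfkl; of the 83 other pathway genes those that passed were named, with Slc2a4, Pdk4, Txnip and Mlxipl.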

Additional observations from a re-analysis of the deposited data

Results flagged for a closer look

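Of 117 combinations of a measured gene of the list and a group, 10 held a sample whose gap to its nearest neighbour exceeded Dixon's limit of 0.71 of the group's range, where chance flags about 1 in 20. All were in control 34 or FGF21 36. On the log2 scale, control 34 stood low for Pfkl (11.80, other controls 12.51 to 12.75), Pkm (12.72, others 13.24 to 13.39), Pdk2 (8.995, others 9.61 to 9.81), Gys1 (9.93, others 10.70 to 10.90) and Gpd1 (13.98, others 14.30 to 14.41). It stood high for Pfkfb4 (7.59, others 6.53 to 6.83). FGF21 36 stood low for Pfkfb2 (5.78, others 6.14 to 6.16), Pgam1 (12.37, others 12.63 to 12.72) and Gpd1 (14.10, others 14.33 to 14.40), and high for Pfkfb4 (8.14, others 6.37 to 6.74). These arrays also had the highest macrophage sums and the highest fibroblast and progenitor means, and FGF21 36 had the highest muscle sum of its group. The part of RNA from these cell types in these values was not tested.

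Among 39 combinations for the 13 other carbohydrate genes named, 3 were beyond the limit. Control 34 was low for Slc16a7 (7.02, other controls 7.28 to 7.38) and Mlxipl (10.64, others 11.26 to 11.52), and aFGFR1/KLB 42 was low for Khk (7.32, others 7.43 to 7.43).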

How the results depend on the processing

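No paired analysis was possible because replicate numbers do not repeat between groups. Under 15 alternative settings and 15 fits without 1 array, the 38 genes gave 3405 values. A change of sign was counted only where the main or the alternative fit called the gene, and 0 were counted. Most of these values were uncalled in both fits and could not count, and all fits reuse the same arrays. The 10 calls were kept in 131 of 150 alternative fits and 124 of 150 fits without 1 array. The latter include, for each call, 5 fits without an array of the group not compared, where the fold change cannot move. In addition, 60 values of uncalled results passed, and the cause was not tested. In brackets after each number passing is the share of all genes that passed. With aFGFR1/KLB it was 5 (5.18%), against 3 with the most variable probe set (5.93%) and 1 with arrays centred on ribosomal protein genes (1.34%). It was 12 with array weights (17.5%), 10 with a macrophage covariate (13.1%) and 10 with Acta1 and macrophage covariates (10.8%). Without control 34 and FGF21 36 it was 13 (12.4%). With FGF21 it was 5 (6.32%), against 1 with ribosomal centring (1.54%) and 3 with only the 10 arrays compared fitted (2.44%). It was 10 with array weights (21.7%), 9 with a macrophage covariate (10.0%) and 8 without control 34 and FGF21 36 (16.2%). Between the agonists it was 0 (0.372%), against 3 with array weights (6.32%), 1 with both covariates (1.19%) and 1 without control 34 and FGF21 36 (1.83%). Without 1 array these counts ran from 1 to 7, from 3 to 8 and from 0 to 2. The shares of all genes then ran from 2.55% to 8.65%, from 3.51% to 15.9% and from 0.0759% to 1.91%.

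Ribosomal centring moved the median of all genes by 0.10 (aFGFR1/KLB against control). It left Slc2a1 as the lone call with either agonist (0.61, adjusted p = 0.0334, with aFGFR1/KLB), and Pfkp then had adjusted p = 0.0784. It raised the share of higher calls over all genes from 51.9% to 83.1% with aFGFR1/KLB and from 41.8% to 66.0% with FGF21. Over all genes, the 682 calls with aFGFR1/KLB became 177 with that centring, 2307 with array weights, 1720 with a macrophage covariate, 1427 with both covariates and 1631 without control 34 and FGF21 36. The 833 calls with FGF21 became 203, 322 with only the 10 arrays compared, 2855 with array weights, 1322 with a macrophage covariate and 2138 without both arrays. The 49 calls between the agonists became 8 with ribosomal centring, 77 with the 60th percentile filter, 87 with only the 10 arrays compared, 81 with trend and robust eBayes, 832 with array weights, 133 with a macrophage covariate, 157 with both covariates, 241 without control 34 and FGF21 36, and 30 without FGF21 36 and aFGFR1/KLB 45, a setting chosen after the data were seen. Without 1 array they ran from 336 to 1140, from 463 to 2097 and from 10 to 251. Under each of 5 alternatives of the correlation with Acta1, 4 genes reached 0.7, including r without FGF21 36. Each alternative used 1 measure alone, where the muscle class needed both r and rho.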
